A study of Mus musculus with 16 samples.

Results

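Olig1, Olig2 and 6 further genes that mark or direct oligodendrocyte precursor cells were followed through the hippocampus of 4 mouse genotypes. The set was fixed by symbol: Olig1, Olig2, Sox10, Nkx2-2, Pdgfra, Cspg4, Gpr17 and Myrf. All 8 were found among the 55385 genes of the deposited count table, and all 8 were among the 16684 genes with enough counts to be tested. Olig1 and Olig2 lie in the chromosome 16 segment that Dp16 mice carry in 3 copies in place of 2, and the other 6 lie outside it.

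Polyadenylated RNA of hippocampi from mice 5 months of age was sequenced in 16 libraries, 4 per genotype. 5xFAD-Dp16 mice carry both of the changes below, and all 4 libraries were from males. 5xFAD mice, a model of the amyloid deposits of Alzheimer's disease, express human transgenes that the Thy1 promoter drives in neurons. Dp16 mice, a model of Down syndrome, carry the duplicated chromosome 16 segment with no human transgene. Wild-type mice were C57BL/6J, and for the other genotypes the labels give no strain. The 5xFAD, Dp16 and wild-type groups had 2 males and 2 females each, and the fits carried a term for sex that 5xFAD-Dp16, without females, takes from the other genotypes. Whether each library came from its own mouse is not spelled out in the labels, and the p-values describe only how these libraries spread. The comparisons with 5xFAD-Dp16, and likewise those with wild-type, share libraries and are not independent of each other.

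Oligodendrocyte precursors are dividing glial cells that persist in the adult brain and give rise to the oligodendrocytes that wrap axons in myelin. Olig2 is the basic helix-loop-helix factor that specifies the lineage, and its neighbour Olig1 acts mainly in later maturation. Sox10 is kept throughout the lineage, Nkx2-2 acts at the onset of differentiation, Gpr17 marks the cells passing through that step, and Myrf, a membrane-bound factor cleaved to enter the nucleus, switches on the myelin genes. Pdgfra, the receptor for platelet-derived growth factor, and Cspg4, the NG2 proteoglycan, sit on the surface of the precursors and, for both, on some other cells around blood vessels or in the meninges. In bulk tissue, fewer cells of a type and less RNA per cell cannot be told apart.

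The pair in the segment was looked at in sequence first, since the question of 3 copies turns on it. In GRCm38, Olig2 spans chr16:91225457-91228677 and Olig1 chr16:91269772-91271933, both on the plus strand and 44.3 kb apart from start to start. Their transcripts are 2530 bases (Olig2) and 2162 bases (Olig1). The longest stretch both transcripts share exactly is 17 bases, within the coding part of each, and is shorter than the 150-base reads. It is given here because it bounds how alike the 2 paralogs look to a read.
Olig1 and Olig2 shared coding stretch: aagatcaacagccgcga
RefSeq promoter windows, from 250 bases before to 50 after a gene start, were at hand for 4 of the 8 genes (Olig2, Nkx2-2, Pdgfra and Cspg4). The part of the Olig2 window that lies before every annotated Olig2 transcript (GRCm38.p6 chr16:91225300-91225456, plus strand, 157 bases) is shown because Olig2 is 1 of the 2 genes with an extra copy. Capitals mark both matches to the CCAAT box (CCAAT, searched on both strands), which lie on the minus strand.
Olig2 upstream window: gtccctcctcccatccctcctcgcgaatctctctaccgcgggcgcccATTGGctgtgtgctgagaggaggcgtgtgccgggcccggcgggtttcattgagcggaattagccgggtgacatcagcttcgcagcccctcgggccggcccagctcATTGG
The CCAAT box was chosen after the sequence was seen, and 37.4% of 32851 promoter windows held it. The whole Olig2 window, the 50 bases after its start included, held no further CCAAT box and no E-box of any kind (CANNTG, in 72.3% of windows), among them none of the form CAGATG (17.2%). It held no ACAAAG (18.7%) and no CACTTG (13.6%), and 1 ACAATG (12.6%), all searched on both strands.

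The other 6 genes lie outside the duplicated segment, each on another chromosome. In GRCm38, Sox10 (ENSMUSG00000033006) lies at chr15:79154908-79165240 on the minus strand and Nkx2-2 (ENSMUSG00000027434) at chr2:147177546-147194243 on the minus strand. Pdgfra (ENSMUSG00000029231) lies at chr5:75152292-75198215 and Cspg4 (ENSMUSG00000032911) at chr9:56865033-56899870, both on the plus strand. Gpr17 (ENSMUSG00000052229) lies at chr18:31942997-31949636 and Myrf (ENSMUSG00000036098) at chr19:10208272-10240748, both on the minus strand. Olig1 is ENSMUSG00000046160 and Olig2 ENSMUSG00000039830.

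Depth ranged from 15838097 to 25037769 counts per library, and the 8 genes drew between 43 and 4444 counts in a library. The lowest value, 43 counts of Nkx2-2 in Dp16 replicate 3, has an exact 95% Poisson interval of 31.1 to 57.9, which covers counting error only. The tissue label was checked against 9 hippocampal marker genes, which summed to 586 to 1285 CPM in 5xFAD-Dp16, 587 to 955 in 5xFAD, 791 to 1265 in Dp16 and 399.7 to 1271 in wild-type libraries. CPM are counts scaled to a common library size, here with TMM factors that correct for the makeup of each library. A list of 16 midbrain and hypothalamic genes summed to 380.2 CPM in 5xFAD replicate 2, 265 in wild-type replicate 4, 96.7 in 5xFAD-Dp16 replicate 3 and 32.4 in 5xFAD replicate 4, against 8.0 to 13.7 in the other 12 libraries. Of the 16 genes, 1 to 2 were at 0 in these 4 libraries and 4 to 10 in the other 12. These 4 libraries are called midbrain-rich here, and values without them are given beside several of the results they move. Sums of 12 thalamic genes were highest in the same 4. They were 674 CPM in 5xFAD replicate 4, 405 in wild-type replicate 4, 387 in 5xFAD replicate 2 and 337 in 5xFAD-Dp16 replicate 3. The other 12 libraries had 176 to 286 CPM. By these sums 5xFAD replicate 4 ranked highest for thalamic genes and lowest of the 4 for midbrain and hypothalamic genes. Choroid plexus genes (9) ranged from 53.1 to 6620 CPM over the 16 libraries.

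Per length, in the deposited RPKM (reads per kilobase per library size), Olig1 had the highest level of the 8 and Nkx2-2 and Cspg4 the lowest. The mean level over 16 libraries was 76.9 ± 12.2 RPKM for Olig1, 22.7 ± 3.06 for Sox10, 17.5 ± 3.55 for Olig2, 14.9 ± 2.50 for Myrf, 11.1 ± 2.07 for Gpr17, 6.88 ± 0.789 for Pdgfra, 3.07 ± 1.20 for Nkx2-2 and 2.91 ± 0.495 for Cspg4 (SD, n = 16). Neighbours in this order kept their order in all 16 libraries, apart from Olig2 above Myrf, which held in 12, and Nkx2-2 above Cspg4, which held in 8. The last pair did not differ beyond its spread, with a median ratio of 1.00 and a range of 0.369 to 2.70. Olig1 stood 2.59 to 4.38 times above Sox10 in every library. Of the 8 genes, Nkx2-2 varied most over the libraries, 4.73-fold between the lowest and the highest CPM, and Sox10 least, 1.47-fold.

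**Figure D1:**
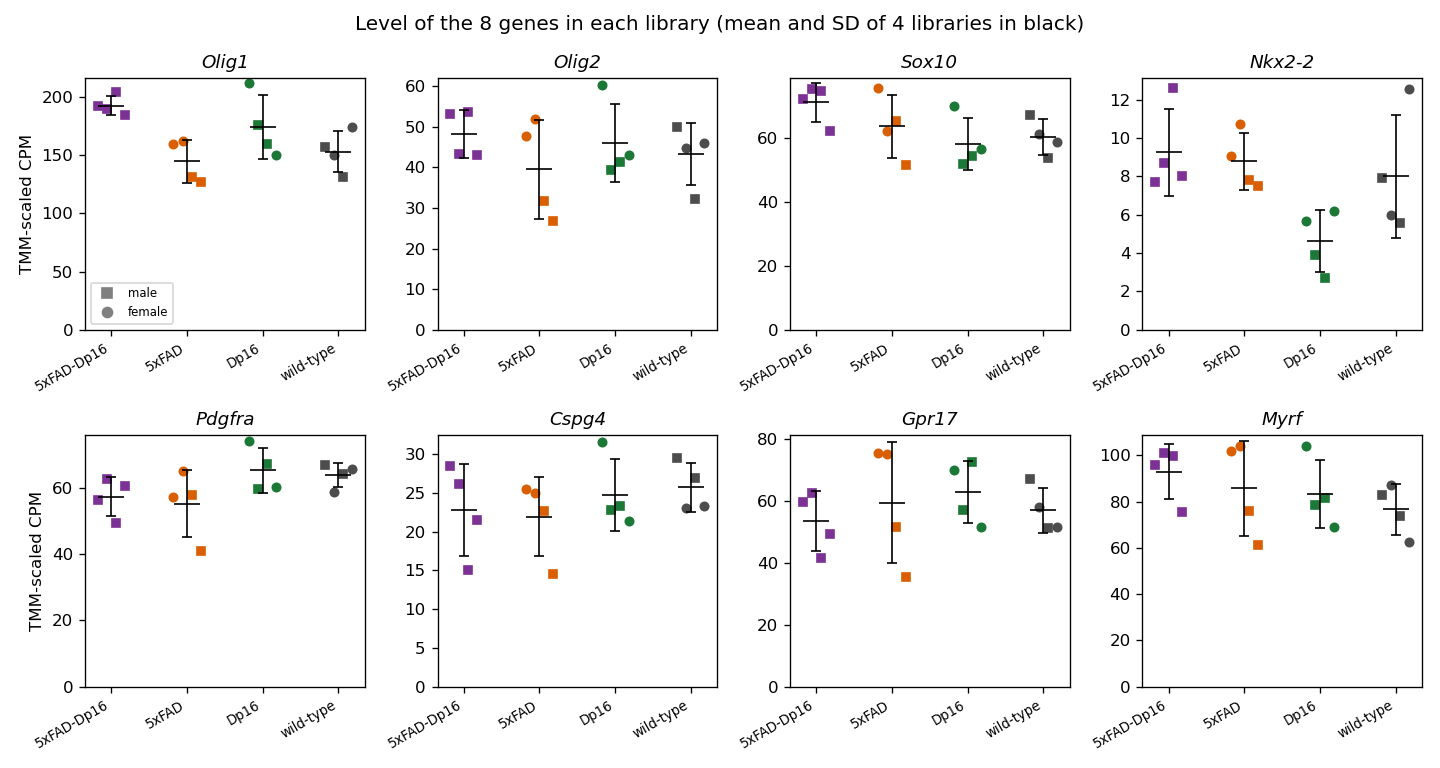
Level of each of the 8 genes in each library, in TMM-scaled CPM on a linear axis from 0, by genotype (squares males, circles females, black bars mean and SD of 4 libraries). The 4 Olig1 values of 5xFAD-Dp16 (185 to 205 CPM) lie above all 4 of 5xFAD and all 4 of wild-type. Groups did not overlap in 2.61% and 4.38% of all tested genes in these comparisons. The 4 Nkx2-2 values of Dp16 (2.67 to 6.19 CPM) lie below all 4 of 5xFAD-Dp16 (5.76% of all tested genes).

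The first comparison asks what a segment in 3 copies does to these genes without the amyloid transgenes. Against wild-type, Dp16 hippocampi showed no call among the 8 genes: edgeR called 0 of 8 at an adjusted p below 0.05, where 14 of all tested genes passed (0.0839%), and 1 of 8 (Nkx2-2) had an unadjusted p below 0.05 (3.31% of all tested genes). DESeq2 also called 0 of 8 (38 of all genes), and for 0 of 8 did the groups not overlap (2.92% of all tested genes). The 2 genes with an extra copy, Olig1 and Olig2, stood close to their wild-type level, and the interval of each lay below 1.5-fold, the ratio of 3 copies to 2.

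Olig1 read 212, 176, 159 and 150.2 CPM in the 4 Dp16 libraries, against 157, 150.4, 131 and 174 CPM in the 4 wild-type libraries. The ranges overlap, with 2 of 4 Dp16 libraries above all wild-type ones, and Dp16 replicate 1 is the highest of the 16 libraries. The fitted difference was log2 0.19 ± 0.107 SE (1.14-fold, 95% interval 0.973 to 1.34-fold, edgeR adjusted p = 0.99). Single libraries move this value, to log2 0.11 without Dp16 replicate 1 and 0.29 without Dp16 replicate 4. Olig2 read 60.3, 39.3, 41.4 and 43.1 CPM in Dp16, against 50.0, 44.9, 32.2 and 46.0 CPM in wild-type libraries. Apart from Dp16 replicate 1, every Dp16 value of Olig2 fell inside the wild-type range. Its fitted difference was log2 0.07 ± 0.158 SE (1.05-fold, interval 0.835 to 1.33-fold, edgeR adjusted p = 0.99).

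The other tested genes of the segment give the scale for this. The segment was taken from Lipi to Zbtb21, chr16:75540514-97962622, and held 105 tested genes, Olig1 and Olig2 included. Their median difference in Dp16 against wild-type was log2 0.52 (1.43-fold), 95 of 105 were positive and 13 were called, all higher. Olig2 ranked 12 and Olig1 ranked 16 from the lowest of the 105. The 95% interval, unadjusted for the number of genes, lay wholly below 1.5-fold in 4 of the 105 (3.81%), which were Olig1, Olig2, the biotin ligase gene Hlcs (1.24-fold) and the predicted gene Gm9843 (0.758-fold). Both Olig intervals stayed below 1.5-fold in all 25 alternative fits, with the nearest bounds at log2 0.53 for Olig1 (males only) and 0.56 for Olig2 (without wild-type replicate 1). These fits reuse the same libraries, and Olig1 and Olig2 varied together within genotypes (r = 0.85). Neither the fits nor the 2 genes are thus independent of each other.

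Genes next to the pair mostly stood near the segment's median. Of the 19 other tested genes that start within 500 kb of Olig2, 17 were positive, the median difference was log2 0.52 (1.43-fold), 5 were called and none had an interval wholly below 1.5-fold. Of the interferon receptor genes beyond Olig1, Ifnar1 rose by log2 0.72 (edgeR adjusted p = 0.00143) and Ifngr2 by 0.63 (adjusted p = 0.0201), while Ifnar2 stood at 0.60 (adjusted p = 0.0681). Gart, an enzyme of purine synthesis, rose by 0.53 (adjusted p = 0.0115), and Tmem50b and Dnajc28 were the other two called. The splicing factor gene Son stood at 0.40 (adjusted p = 0.18). On the other side, Synj1, a phosphatase of synaptic vesicle recycling, stood at 0.76 and Cfap298 at 0.49, neither past the threshold. Another 5 neighbours (Mrap, Eva1c, 4932438H23Rik, A930006K02Rik and Gm10785) had fitted values from log2 -0.18 to 0.13, as low as those of the pair, with intervals wide enough to hold 1.5-fold.

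**Figure D2:**
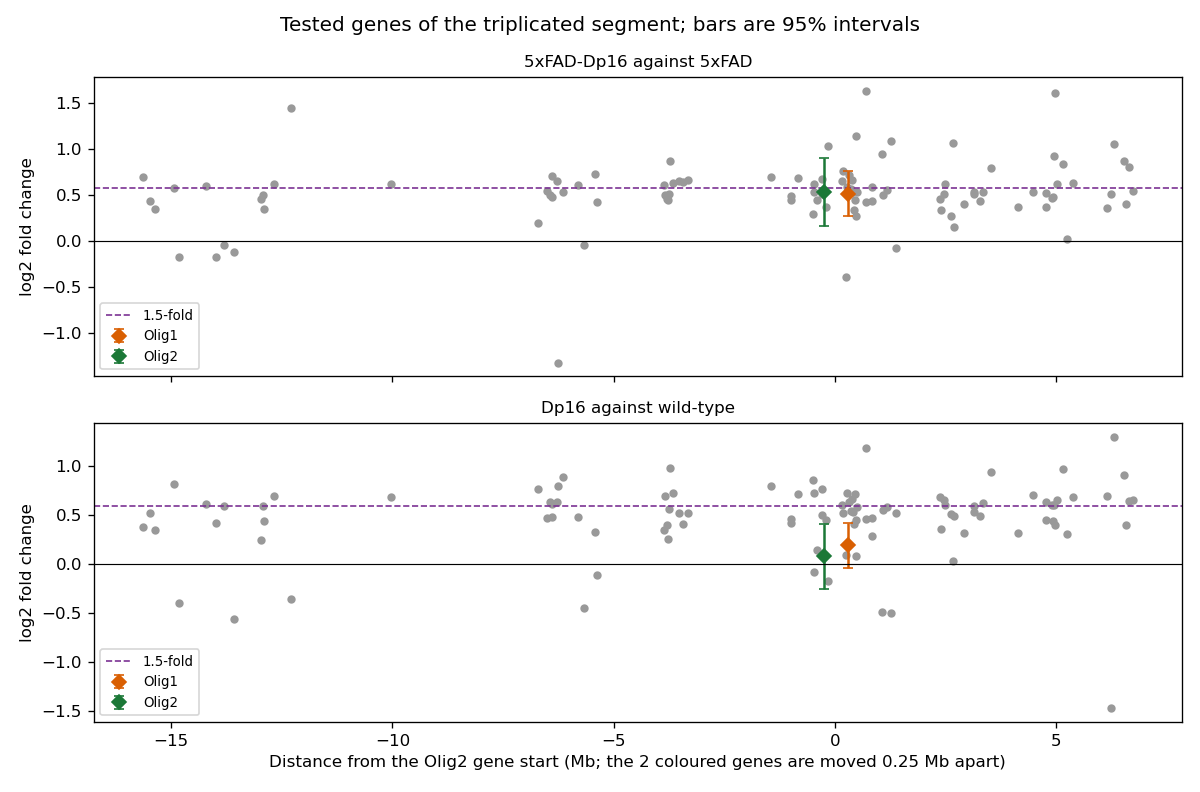
Fitted log2 fold change of each of the 105 tested genes of the triplicated segment (grey points) by distance from the Olig2 start in Mb, for 5xFAD-Dp16 against 5xFAD (top) and Dp16 against wild-type (bottom). Olig1 and Olig2, drawn 0.25 Mb off their places with 95% intervals, lie below the dashed 1.5-fold line in the lower panel and close to it, with intervals that hold it, in the upper panel.

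Among the 6 genes with the usual 2 copies, differences of Dp16 against wild-type were small apart from Nkx2-2. Sox10 stood at log2 -0.06 ± 0.115, Pdgfra at 0.03 ± 0.123, Cspg4 at -0.07 ± 0.201, Gpr17 at 0.14 ± 0.201 and Myrf at 0.11 ± 0.161 (SE), none called. Their intervals exclude a 1.5-fold rise in each case, the widest reaching 1.48-fold for Gpr17. Nkx2-2 averaged 4.61 ± 1.62 CPM in Dp16, against 7.99 ± 3.20 CPM in wild-type libraries (SD, n = 4 each), log2 -0.82 ± 0.234 SE, which did not pass over all genes (edgeR adjusted p = 0.787) and passed in the fit without a filter on low counts (adjusted p = 0.0196). The groups overlap, and the highest wild-type value, 12.5 CPM in replicate 4, came from a midbrain-rich library. Without the 4 midbrain-rich libraries the difference was log2 -0.59 (edgeR adjusted p = 0.995).

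On the amyloid background the fitted values of the pair were higher. In 5xFAD-Dp16 against 5xFAD, edgeR again called 0 of 8 genes (0.0539% of all tested genes passed), and 2 of 8, Olig1 and Olig2, had an unadjusted p below 0.05 (3.28% of all tested genes). DESeq2 called 1 of 8, Olig1 (adjusted p = 0.0125), and 25 of all genes, where edgeR called 9. Olig1 was also the only one of the 8 with groups that did not overlap, as in 2.61% of all tested genes.

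Olig1 read 193, 189.6, 205 and 185 CPM in 5xFAD-Dp16, against 159, 162, 131 and 127 CPM in 5xFAD libraries. All 4 5xFAD-Dp16 libraries were above all 4 5xFAD libraries, and they were the tightest group of Olig1, with a coefficient of variation of 4.29%. The fitted difference was log2 0.52 ± 0.117 SE (1.43-fold, interval 1.21 to 1.70-fold, edgeR adjusted p = 0.313). Olig2 read 53.2, 43.3, 53.6 and 43.1 CPM in 5xFAD-Dp16, against 47.8, 52.0, 31.7 and 26.8 CPM in 5xFAD libraries. The 2 high 5xFAD values of Olig2 are from females and the 2 low ones from males, and all 5xFAD-Dp16 libraries are male. The fitted difference was log2 0.54 ± 0.175 SE (1.45-fold, interval 1.12 to 1.87-fold, edgeR adjusted p = 1.00). Without the term for sex it was 0.29, and among males alone 0.74; for Olig1 these values were 0.41 and 0.60. Without the 4 midbrain-rich libraries Olig1 stood at 0.45 and Olig2 at 0.42. Leaving out 1 library at a time gave 0.47 to 0.56 for Olig1 and 0.39 to 0.60 for Olig2. Both were lowest without 5xFAD replicate 4. The term for sex thus moves the Olig2 value by over 1.5 times, and with no 5xFAD-Dp16 females the difference among females cannot be tested.

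The segment as a whole stood at a median of log2 0.53 in this comparison, with 97 of 105 genes positive and 8 called. Olig1 ranked 49 and Olig2 ranked 54 from the lowest of the 105 in the fit with the term for sex, both near the middle. In Dp16 against wild-type both were among the lowest 16. Without the term for sex Olig1 stood at log2 0.41 and Olig2 at 0.29 in 5xFAD-Dp16 against 5xFAD, and ranks were not taken there. The interaction, which sets the duplication effect with the transgenes against the effect without them, tests the difference between the backgrounds directly. It called 0 of 8 genes and 0 of all tested genes (0%) with edgeR. DESeq2 called 0 of all genes too. At an unadjusted p below 0.05, 332 of all tested genes passed (1.99%) and 1 of the 8, Nkx2-2. For Olig1 it was log2 0.33 ± 0.158 SE (interval -0.01 to 0.67) and for Olig2 0.46 ± 0.236 (interval -0.04 to 0.96), both with an edgeR adjusted p of 1.00 (0.22 and 0.37 without the midbrain-rich libraries). The difference between the backgrounds was thus not past the threshold for either gene, and the intervals hold both no difference and one as large as the copy number ratio.

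**Figure D3:**
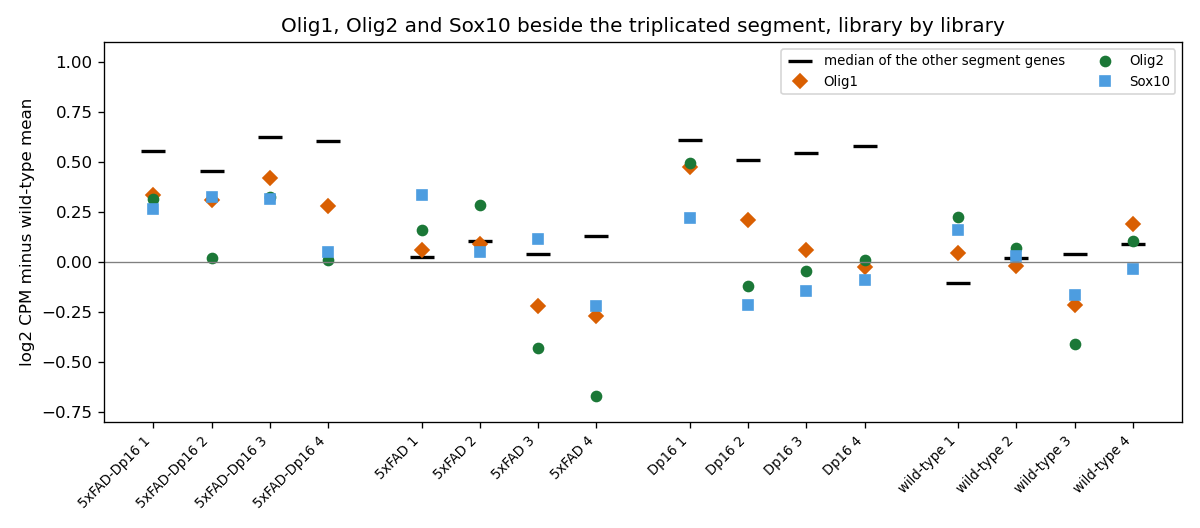
Level of Olig1, Olig2 and Sox10 in each library as log2 CPM minus the wild-type mean, beside the median of the other 103 tested segment genes (black bars). The segment median lies between 0.46 and 0.63 in the 8 libraries with the duplication and between -0.10 and 0.13 in the 8 without it, and Olig1 and Olig2 lie below it in all 8 with the duplication.

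The pair was also set against the segment library by library. In the 8 libraries with the duplication, the median of the other 103 segment genes was log2 0.46 to 0.63 above its wild-type mean. Olig1 was -0.02 to 0.48 and Olig2 -0.12 to 0.50 from theirs, and each was below the segment median in 8 of 8 libraries. All 8 were set against the mean of the same 4 wild-type libraries, so these are not 8 independent observations. The wild-type libraries themselves ranged from -0.21 to 0.19 for Olig1 and from -0.41 to 0.23 for Olig2 around that mean. All 5xFAD-Dp16 libraries are male and the wild-type mean is of both sexes. These 4 were also set against the 5xFAD mean, a choice made after the data were seen. The 5xFAD libraries share the transgenes but are also of both sexes, so the difference in sex remains. The segment median was then log2 0.41 to 0.55, Olig1 0.36 to 0.51 and Olig2 0.17 to 0.49. Both genes were below the median in 4 of 4 libraries, by little for Olig1 in replicates 2 (0.40 against 0.41) and 3 (0.51 against 0.52). Among males alone the fitted difference in 5xFAD-Dp16 against 5xFAD was log2 0.60 for Olig1 and 0.74 for Olig2. Whether the pair lies below the segment median against 5xFAD males alone was not tested. Against the wild-type mean Dp16 replicate 1 came nearest, with Olig1 at 0.48 and Olig2 at 0.50 against a segment median of 0.61. Sox10, Pdgfra, Cspg4, Gpr17 and Myrf were also above their wild-type means in that library, by 0.22 to 0.45. Averaged over both backgrounds, the duplication effect was log2 0.35 ± 0.0796 SE for Olig1 (1.28-fold, interval 1.14 to 1.44-fold, edgeR adjusted p = 0.144) and 0.31 ± 0.117 for Olig2 (1.24-fold, interval 1.04 to 1.47-fold, adjusted p = 0.949). edgeR called 0 of the 8 genes there, against 0.234% of all tested genes, and 2 of 8 had an unadjusted p below 0.05 (4.6% of all tested genes). In 0 of 8 did the libraries with and without the duplication not overlap (0.216% of all tested genes). Olig1 passed with DESeq2 (adjusted p = 0.00462), without the low-count filter (0.0357) and without Dp16 replicate 4 (0.018). Of all genes, DESeq2 called 83 in this effect and edgeR without the filter 179, against 39 in the main fit. The segment median of this effect was log2 0.53, with 33 of 105 genes called, and the intervals of 8 of the 105 (7.62%), Olig1 and Olig2 among them, lay below 1.5-fold. That position held for Olig1 in 23 of 24 alternative fits (all but males only, bound log2 0.61) and for Olig2 in 18 of 24. It was lost for Olig2 among males (0.66) and without wild-type replicate 1 (0.65), Dp16 replicate 4 (0.62), 5xFAD-Dp16 replicate 4 or 2 (0.59 in both) or 5xFAD replicate 2 (0.59).

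The ratio of the pair to each other moved little. Olig1 per Olig2, in RPKM, was 4.71 ± 0.430 in 5xFAD-Dp16, 4.48 ± 0.865 in 5xFAD, 4.49 ± 0.544 in Dp16 and 4.20 ± 0.496 in wild-type libraries (SD, n = 4 each), with ranges that overlap between all groups. Olig1 per Sox10, which sets it against a lineage gene with the usual copies, was 3.51 ± 0.249 in 5xFAD-Dp16, 2.96 ± 0.367 in 5xFAD, 3.87 ± 0.397 in Dp16 and 3.29 ± 0.361 in wild-type. These ratios were not tested.

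The amyloid transgenes were considered next. In 5xFAD against wild-type, edgeR called 0 of the 8 genes, where 162 of all tested genes passed (0.971%), and 0 of 8 had an unadjusted p below 0.05 (8.85% of all tested genes). DESeq2 also called 0 of 8 (294 of all genes), and 0 of 8 had groups that did not overlap (4.53% of all tested genes). The precursor surface genes were the lowest, with Cspg4 at log2 -0.25 ± 0.203 SE (interval -0.68 to 0.19) and Pdgfra at -0.22 ± 0.124 (interval -0.48 to 0.05). Pdgfra averaged 55.3 ± 10.2 CPM in 5xFAD and 63.9 ± 3.56 in wild-type (SD, n = 4 each). Both values lean on 5xFAD replicate 4, without which Cspg4 stood at log2 -0.07 and Pdgfra at -0.09. Without wild-type replicate 1 Cspg4 stood at -0.15. Olig2 stood at -0.17 and Olig1 at -0.09, Gpr17 at 0.03, Sox10 at 0.07, Myrf at 0.14 and Nkx2-2 at 0.15. For 7 of the 8 genes, all but Nkx2-2, the lowest CPM of the 16 libraries was in 5xFAD replicate 4. That library also had the highest sum of thalamic genes (674 CPM). Dp16 replicate 1 held the highest CPM of 5 of the 8 genes (Olig1, Olig2, Pdgfra, Cspg4 and Myrf).

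**Figure D4:**
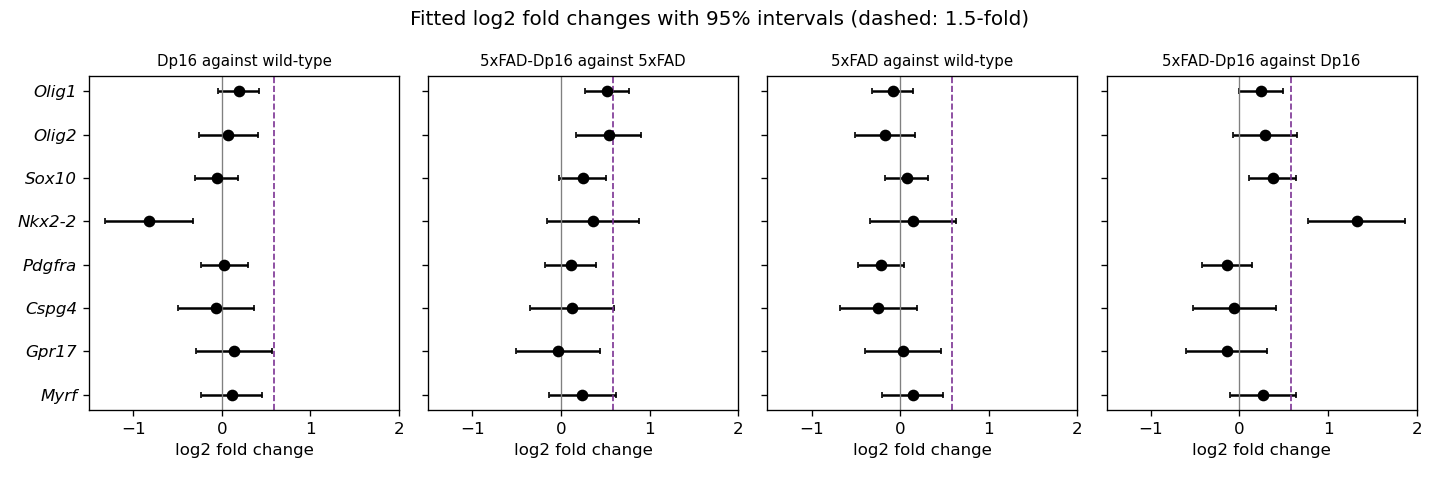
Fitted log2 fold change of each of the 8 genes with its 95% interval in 4 comparisons (dashed line 1.5-fold, solid line no difference). The interval of Nkx2-2 lies above 1.5-fold in 5xFAD-Dp16 against Dp16 and below 0 in Dp16 against wild-type. Those of Olig1 and Olig2 lie above 0 in 5xFAD-Dp16 against 5xFAD and that of Sox10 in 5xFAD-Dp16 against Dp16, and all others hold 0.

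Of the 8 genes, Nkx2-2 alone passed the test, in 2 related comparisons. In 5xFAD-Dp16 against Dp16 edgeR called 1 of 8 genes, where 141 of all tested genes passed (0.845%), and 2 of 8, Nkx2-2 and Sox10, had an unadjusted p below 0.05 (8.57%). Nkx2-2 read 7.70, 8.71, 12.6 and 7.99 CPM in 5xFAD-Dp16, against 5.68, 3.91, 2.67 and 6.19 CPM in Dp16 libraries. All 4 5xFAD-Dp16 values were above all 4 Dp16 values, as for 5.76% of all tested genes in either direction. The fitted difference was log2 1.32 ± 0.258 SE (2.50-fold, interval 1.71 to 3.66-fold, edgeR adjusted p = 0.0198). In the mean 5xFAD effect over both backgrounds, where 427 of all tested genes passed (2.56%), Nkx2-2 rose 1.66-fold (log2 0.73 ± 0.173, edgeR adjusted p = 0.0308), with groups that overlapped (0.977% of all tested genes had groups that did not). It averaged 9.25 ± 2.28 CPM in 5xFAD-Dp16, 8.79 ± 1.48 in 5xFAD, 4.61 ± 1.62 in Dp16 and 7.99 ± 3.20 in wild-type libraries (SD, n = 4 each), with the lowest mean in Dp16. Nkx2-2 also had the largest interaction of the 8, log2 1.18 ± 0.342 SE (edgeR adjusted p = 1.00), past the threshold, of the alternatives run, without the low-count filter only (adjusted p = 0.0384). Without the midbrain-rich libraries this interaction was log2 0.72 (edgeR adjusted p = 1.00).

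The call of Nkx2-2 rested on few libraries and on the term for sex. In 5xFAD-Dp16 against Dp16 it was lost without the term for sex (log2 1.00, adjusted p = 0.201), among males (1.47, 0.0567), and without 5xFAD-Dp16 replicate 3 (1.14, 0.0534), Dp16 replicate 2 (1.37, 0.0961) or Dp16 replicate 3 (1.14, 0.132). It was also lost with the myelin covariate described later (1.00, 0.223). The mean 5xFAD effect lost its call without the term for sex (log2 0.57, adjusted p = 0.209), among males (0.82, 0.0827), and without any 1 of 6 libraries: 5xFAD replicate 2 (0.73, 0.0728), 5xFAD-Dp16 replicate 3 (0.65, 0.0569), Dp16 replicates 1 (0.74, 0.052), 2 (0.76, 0.074) and 3 (0.64, 0.104) or wild-type replicate 3 (0.68, 0.1), and with that covariate (0.47, 0.513). DESeq2 kept both calls, with 269 of all genes called in 5xFAD-Dp16 against Dp16 and 693 in the mean 5xFAD effect. The highest Nkx2-2 value of the 5xFAD-Dp16, 5xFAD and wild-type groups came each time from the library highest in midbrain and hypothalamic genes (5xFAD-Dp16 replicate 3, 5xFAD replicate 2 and wild-type replicate 4), and Dp16 has no such library. Without those libraries and 5xFAD replicate 4 the difference was log2 1.04 (adjusted p = 0.0535), and the mean 5xFAD effect was 0.68 (adjusted p = 0.0371). Of the 16 genes of that list 8 were tested, and their median difference in 5xFAD-Dp16 against Dp16 was log2 2.82, with 8 of 8 positive and 0 called. Nkx2-2 counts, 43 to 277 per library, were the fewest of the 8 genes. An antisense gene, Nkx2-2os, overlaps 10161 bases of it with 3 to 29 counts, and the sources used here do not give the strand setting of the counting.

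The remaining members were set beside each other in the same comparisons. Sox10 read 72.3, 75.2, 74.7 and 62.1 CPM in 5xFAD-Dp16, against 70.0, 51.8, 54.2 and 56.4 CPM in Dp16 libraries. Of the 5xFAD-Dp16 libraries, 3 of 4 were above all Dp16 ones. The difference was log2 0.38 ± 0.125 SE (1.30-fold), which did not pass over all genes (edgeR adjusted p = 0.296). In the mean 5xFAD effect Sox10 stood at 0.22 ± 0.0845 (edgeR adjusted p = 0.225) and Myrf at 0.20 ± 0.117 (adjusted p = 0.402). Pdgfra stood at -0.18 ± 0.09, Cspg4 at -0.15 ± 0.146 and Gpr17 at -0.06 ± 0.144 (SE), none called. In 5xFAD-Dp16 against wild-type, edgeR called 0 of 8 genes (1.01% of all tested genes passed), and Olig1 alone of the 8 had groups that did not overlap (4.38% of all tested genes). Olig1 stood at log2 0.43 ± 0.116 SE there (1.35-fold, edgeR adjusted p = 0.129). Its adjusted p was 0.0296 with DESeq2 and 0.0312 with edgeR without Dp16 replicate 4. DESeq2 called 267 of all genes there, against 169 with edgeR. Myrf stood at 0.38 ± 0.172, Olig2 at 0.37 ± 0.169 and Sox10 at 0.32 ± 0.124, so that 4 of 8 genes, with Olig1, had an unadjusted p below 0.05 (6.38% of all tested genes).

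In the fit of genotype and sex, edgeR called Pdgfra, Cspg4, Gpr17 and Myrf in no comparison, and their groups overlap in every comparison of groups. Pdgfra read 56.5, 62.8, 49.4 and 60.6 CPM in 5xFAD-Dp16, 57.3, 65.1, 57.8 and 40.9 CPM in 5xFAD, 74.2, 59.8, 67.3 and 60.3 CPM in Dp16 and 66.9, 58.8, 64.3 and 65.7 CPM in wild-type libraries. The lowest value is that of 5xFAD replicate 4, and the highest that of Dp16 replicate 1. Cspg4 read 28.5, 26.2, 15.04 and 21.5 CPM in 5xFAD-Dp16, 25.6, 24.95, 22.6 and 14.5 CPM in 5xFAD, 31.6, 22.8, 23.3 and 21.3 CPM in Dp16 and 29.5, 23.1, 26.9 and 23.3 CPM in wild-type libraries. Its lowest values were in 1 library each of 5xFAD and 5xFAD-Dp16, and the other libraries of those groups overlap Dp16 and wild-type.

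Gpr17, the receptor of the transitional stage, read 59.8, 62.6, 41.6 and 49.4 CPM in 5xFAD-Dp16, 75.6, 75.1, 51.6 and 35.3 CPM in 5xFAD, 69.9, 57.0, 72.7 and 51.7 CPM in Dp16 and 67.0, 58.0, 51.3 and 51.5 CPM in wild-type libraries. The 5xFAD group held both its highest and its lowest value, the high ones in females and the low ones in males. Myrf read 95.7, 101, 99.9 and 75.5 CPM in 5xFAD-Dp16, 102, 104, 76.1 and 61.4 CPM in 5xFAD, 104, 78.4, 81.4 and 69.1 CPM in Dp16 and 82.8, 87.4, 73.8 and 62.6 CPM in wild-type libraries. In 3 of 4 5xFAD-Dp16 libraries Myrf was above all wild-type libraries, and in 5xFAD it split by sex as Gpr17 did. In Dp16 and in wild-type libraries the ranges of males and females overlapped for both genes. The lower 5xFAD male was for both replicate 4, the library highest in thalamic genes, and sex was not separated from tissue content.

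Counts of Gpr17 carry an added limit. The gene lies wholly within Lims2 on the opposite strand (6640 bases, Lims2 at 156 to 323 counts per library), and the sources used here do not say how such reads were assigned.

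Wider gene lists around the 8 were described by their counts. Of 12 further precursor genes edgeR called 0 in any of the 8 comparisons (DESeq2 was not run on the lists), and 5 of 96 gene and comparison pairs had an unadjusted p below 0.05 (6.58% of pairs over all tested genes). Their median was log2 -0.04 in the mean 5xFAD effect (0.02 over all tested genes) and -0.01 in the mean duplication effect (-0.01 over all). The largest of them in the duplication effect was Dscam, an adhesion gene that itself lies in the segment (log2 0.66 ± 0.135 SE, edgeR adjusted p = 0.0793). Without the 4 midbrain-rich libraries 1 of the 12 was called in that effect, higher (0.326% of all tested genes). Of 26 other transcription regulators of the lineage, 16 genes of PDGF and proteoglycan receptor signalling and 14 of Shh and Bmp signalling, 0 passed in any of the 8 comparisons, where 10 of 208, 8 of 128 and 3 of 112 pairs had an unadjusted p below 0.05. Without the midbrain-rich libraries 1 of the 26 regulators was called higher in 5xFAD-Dp16 against Dp16 (0.977% of all tested genes). The mean 5xFAD effect then also had 1 of the 26 called higher (2.85%). In the mean duplication effect the smallest p among the regulators was that of Sox2, a factor of neural progenitors, at log2 -0.27 ± 0.107 (adjusted p = 0.949), and in Shh signalling that of its target Gli1, at -0.85 ± 0.284 (adjusted p = 0.837).

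With all 16 libraries, genes of later stages had mostly positive differences with the amyloid transgenes. Of 18 genes of myelinating oligodendrocytes, 18 were positive in the mean 5xFAD effect, with a median of log2 0.41 (0.02 over all tested genes). Of them 15 had an unadjusted p below 0.05 (15.7% of all tested genes) and 2 were called (2.56%), both higher: Trf, which encodes transferrin (log2 0.51 ± 0.111 SE, edgeR adjusted p = 0.0189), and Ugt8a, an enzyme of myelin galactolipid synthesis (0.52 ± 0.124, adjusted p = 0.0331). Among 9 genes of committed precursors, Enpp6, a marker of newly forming oligodendrocytes, was the single call (0.57 ± 0.141, adjusted p = 0.043). Of the 9 genes 6 were positive in this effect (median log2 0.09), and 4 were without the midbrain-rich libraries (median -0.02).

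Genes of the hippocampus and of neighbouring regions are given beside this. In the mean 5xFAD effect 0 of 9 hippocampal genes were positive (median log2 -0.20), against 10 of 12 thalamic (0.55) and 8 of 8 tested midbrain and hypothalamic genes (2.35). The 3 highest means of log2 CPM over the 18 myelin genes were in midbrain-rich libraries, at 7.55 in 5xFAD-Dp16 replicate 3, 7.29 in 5xFAD replicate 4 and 7.18 in 5xFAD replicate 2. Without the 4 midbrain-rich libraries, a choice made for the lists after the data were seen, 18 of 18 myelin genes were again positive, with a lower median of log2 0.26 (0.01 over all tested genes). Of them 12 had an unadjusted p below 0.05 (14.7% of all tested genes) and 4 were called (2.85%). Trf stood at 0.39 (edgeR adjusted p = 0.00577) and Ugt8a at 0.37 (0.00227), while Enpp6 lost its call (0.36, adjusted p = 0.136). In that fit the thalamic median was log2 0.11, the hippocampal one -0.10 and that of 6 tested midbrain and hypothalamic genes 0.0016. The 4 libraries left out were picked as high in midbrain and hypothalamic genes and were also the highest in thalamic genes. The fall of both medians was thus largely set by that choice and does not show that tissue content was balanced.

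In the mean duplication effect 9 of the 18 myelin genes were positive, with a median of log2 -0.0015, and 0 were called or had an unadjusted p below 0.05. The myelin list summed to 6801 to 11340.5 CPM in 5xFAD-Dp16, 7777 to 9361 in 5xFAD, 5933 to 7760 in Dp16 and 6014 to 9325 in wild-type libraries. Microglial genes, as a mark of the transgenes, were called higher in 9 of 10 in the mean 5xFAD effect (Trem2 at log2 2.36 ± 0.114, adjusted p = 4.67e-09).

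With the mean log2 CPM of the 18 myelin genes as a covariate, an alternative chosen after the data were seen, the mean 5xFAD effect on Nkx2-2 was log2 0.47 (adjusted p = 0.513), on Gpr17 0.32, on Cspg4 0.27 and on Pdgfra 0.03. The last 3 thus turned from negative to positive, and none passed. The 18 myelin genes were themselves all positive in the mean 5xFAD effect (median log2 0.41). The covariate is thus tied to genotype, and this fit cannot separate the effect on the members from that on the covariate. Olig1 and Olig2 in 5xFAD-Dp16 against 5xFAD kept log2 0.52 and 0.54.

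No member passed for sex. The female minus male term was log2 0.42 ± 0.129 SE for Olig2 (edgeR adjusted p = 0.776), 0.55 ± 0.19 for Nkx2-2 (adjusted p = 0.808) and 0.20 ± 0.0877 for Olig1 (adjusted p = 0.844), where 8 of all tested genes passed (0.048%). All 8 members were positive in this term, and it takes no information from 5xFAD-Dp16.

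**Figure D5:**
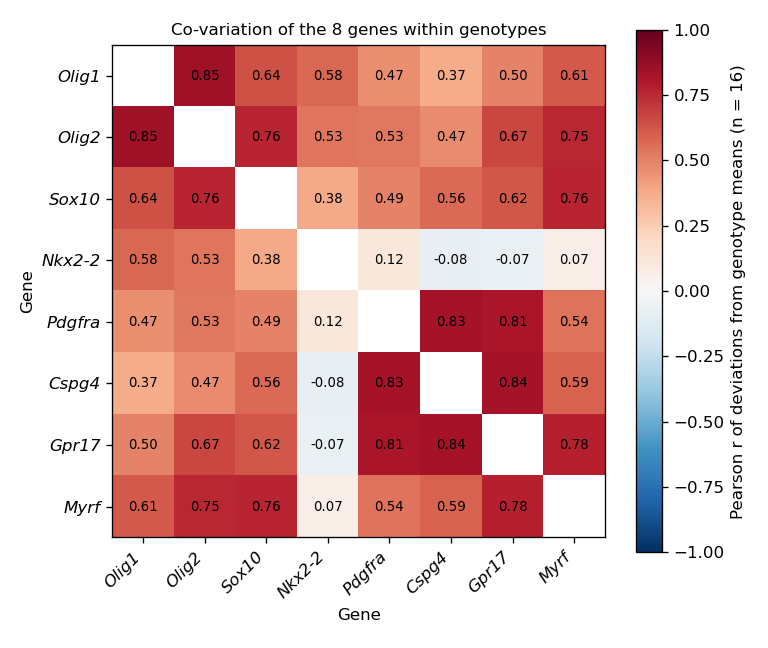
Pearson correlation of each pair of the 8 genes over 16 libraries, as deviations of log2 CPM from the genotype mean (colour scale from -1 to 1, blank diagonal). Olig1 and Olig2 stand at 0.85, and Pdgfra, Cspg4 and Gpr17 at 0.81 to 0.84 with each other. Sox10 stands at 0.76 with Olig2 and with Myrf, and Myrf at 0.75 with Olig2 and 0.78 with Gpr17. The weakest values are those of Nkx2-2 with Cspg4, Gpr17 and Myrf (-0.08 to 0.07).

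Within genotypes the members varied together in several pairs. Deviations from the genotype means were correlated over the 16 libraries for all 28 pairs, with p-values from 100000 permutations within genotypes, adjusted over the 28. Of the 28 pairs, 8 passed for Pearson's r and 3 of these also for Spearman's rho. Olig1 and Olig2, neighbours on the chromosome, had r = 0.85 and rho = 0.82 (adjusted permutation p = 0.0274 and 0.0439), and r = 0.79 without the 2 libraries farthest out. Cspg4 and Gpr17 had r = 0.84 and rho = 0.75 (adjusted permutation p = 0.0165 and 0.0439; 0.70 without 2), and Sox10 and Myrf r = 0.76 and rho = 0.77 (0.0274 and 0.0439; 0.61 without 2). Pdgfra with Cspg4 (r = 0.83, rho = 0.75) and with Gpr17 (r = 0.81, rho = 0.67) passed for r (adjusted permutation p = 0.0274 each) and not for rho (0.0607 each). So did Olig2 with Sox10 (r = 0.76, rho = 0.69) and with Myrf (r = 0.75, rho = 0.74), and Gpr17 with Myrf (r = 0.78, rho = 0.70). Their adjusted permutation p was 0.0274, 0.0472 and 0.0286 for r, and 0.0607, 0.0607 and 0.0773 for rho. Without the 2 libraries farthest out Olig2 and Sox10 had r = 0.81. Nkx2-2 with Cspg4 (r = -0.08, rho = 0.01), Gpr17 (r = -0.07, rho = -0.04) and Myrf (r = 0.07, rho = 0.14) were the weakest, with adjusted permutation p of at least 0.665. The last of these was r = 0.49 without the 2 libraries farthest out. With Olig1, Olig2, Sox10 and Pdgfra, Nkx2-2 had r = 0.58, 0.53, 0.38 and 0.12, none of which passed. These values share library depth, tissue content and sex, whose part in them was not tested.

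The tested genes most like each member over the 16 libraries, members left out, are given by Pearson's r of log2 CPM with all genotypes pooled and with no p. For Olig1 they were Bach1 (r = 0.81), Cyb5r3 (0.77) and Hlcs (0.76), of which Bach1, a repressor of oxidative stress genes, and Hlcs lie in the segment as Olig1 does. For Olig2 they were Zcchc24 (0.85), Llgl1 (0.84) and Itpr3 (0.83). Sox10 was closest to Ets1 (0.85), Micall1 (0.85) and Dnm2 (0.84), and Myrf to Micall1 (0.93), Pacs2 (0.92) and Adamts4 (0.91). Pdgfra was closest to Ccdc148 (0.91), Sox6 (0.90) and Gaa (0.89), where Sox6 is a factor of precursor cells. Cspg4 was closest to Plxnb1 (0.91), C230034O21Rik (0.91) and Zfp507 (0.90), and Gpr17 to Chd6 (0.92), Flt1 (0.89) and Taf15 (0.89). Nkx2-2 was closest to Nmi (0.91), Cldn5 (0.88) and Slc40a1 (0.87), of which Cldn5 is a tight junction gene of the endothelium.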

How the data were processed

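The authors deposited raw counts per gene and, per the file headers, RPKM values. In 27505 genes the deposited RPKM implied 1 gene length across libraries within a relative tolerance of 1e-06. Per the submitters' processing notes, bcl2fastq, FastQC 0.11.5, HISAT2 2.1.0, SAMtools 1.5 and HTSeq 0.6.1 were used with GRCm38, and per the labels' protocols the libraries were strand-specific. The sources used here do not give the strand setting of the counting. Coordinates came from a GENCODE annotation of that build holding 55144 of 55385 identifiers, sequences from it and from RefSeq.

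Counts of all 16 libraries were fitted once with edgeR 4.0.16 (R 4.3.3): default low-count filter, TMM scaling, robust quasi-likelihood test, 1 term per genotype and 1 for sex. P-values were Benjamini-Hochberg adjusted over 16684 genes (threshold 0.05), and SEs follow from the test statistic. DESeq2 1.42.0 was an alternative. Correlations used log2 CPM with a prior count of 2. The fitting was run on counts simulated with set fold changes and with no effect of sex or tissue content. That check does not cover such effects. The members and lists were chosen with earlier results of these data known. Named were all members, of each list the genes that passed (at most 4) or else those with the smallest p, the 3 genes most like each member, and segment genes near Olig2. A list is described by its count and median.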

Additional observations from a re-analysis of the deposited data

How the results depend on the processing

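Over the 8 genes and 8 comparisons, 64 fitted values were recomputed in 1576 alternatives. In 1472 the direction and the side of the threshold were the same, 16 lost a call, 9 gained one and 79 changed sign, and the sign changes were of values that were not called. The cause of none of these changes was tested, beyond what each alternative leaves out.

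The number of the 8 genes called moved as follows. Without the low-count filter it was 1 in Dp16 against wild-type (Nkx2-2), 1 in the mean duplication effect (Olig1) and 1 in the interaction (Nkx2-2). With DESeq2 it was 1, Olig1 each time, in 5xFAD-Dp16 against 5xFAD, in the mean duplication effect and in 5xFAD-Dp16 against wild-type. In 5xFAD-Dp16 against Dp16 it was 0 without the term for sex, among males, without the 4 midbrain-rich libraries and with the myelin covariate, which was chosen after seeing the data. In the mean 5xFAD effect it was 0 without the term for sex, among males and with the myelin covariate. Leaving out 1 library at a time gave 0 to 1 in 5xFAD-Dp16 against Dp16, the mean 5xFAD effect, the mean duplication effect and 5xFAD-Dp16 against wild-type.

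Replicate numbers did not pair the libraries: correlations of same-numbered deviations ran from -0.44 to 0.49. With the replicate number as a block, 1 gene was called in 5xFAD-Dp16 against wild-type (Myrf, log2 0.40, edgeR adjusted p = 0.0402), and Gpr17 there stood at log2 0.00014.

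Among males, values with the other sign were log2 -0.018 for Olig2 and -0.038 for Pdgfra (Dp16 against wild-type), 0.31 for Gpr17 (5xFAD-Dp16 against 5xFAD), -0.063 for Sox10, -0.46 for Gpr17 and -0.20 for Myrf (5xFAD against wild-type), -0.13 for Olig2 (mean 5xFAD effect) and 0.17 for Gpr17 (interaction). With only the compared groups fitted, Gpr17 stood at 0.30 in 5xFAD-Dp16 against 5xFAD. Without the term for sex, Gpr17 stood at -0.0060 (mean duplication effect), Olig2 at -0.030 (mean 5xFAD effect) and Myrf at -0.0024 (interaction). Without the 4 midbrain-rich libraries, Sox10 stood at -0.0090, Cspg4 at -0.0082 and Gpr17 at -0.012 (mean duplication effect), Cspg4 at 0.071 (5xFAD-Dp16 against Dp16), and Gpr17 at 0.012 (mean 5xFAD effect) and 7.6e-05 (5xFAD-Dp16 against wild-type). With the myelin covariate, Pdgfra stood at -0.0027 (Dp16 against wild-type), Gpr17 at 0.060 (5xFAD-Dp16 against 5xFAD), and Nkx2-2 at -0.069 and Cspg4 at 0.11 (5xFAD against wild-type). Pdgfra, Cspg4 and Gpr17 then stood at 0.11, 0.43 and 0.31 (5xFAD-Dp16 against Dp16), at 0.031, 0.27 and 0.32 (mean 5xFAD effect) and at 0.11, 0.31 and 0.39 (5xFAD-Dp16 against wild-type).

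Leaving out 1 library at a time changed signs within these log2 ranges. In Dp16 against wild-type they were -0.0053 to 0.27 (Olig2), -0.14 to 0.040 (Sox10), -0.024 to 0.090 (Pdgfra), -0.19 to 0.035 (Cspg4) and -0.014 to 0.23 (Myrf). In 5xFAD-Dp16 against 5xFAD they were -0.055 to 0.18 (Pdgfra), -0.10 to 0.28 (Cspg4) and -0.30 to 0.071 (Gpr17), and in the mean duplication effect -0.0100 to 0.11 (Pdgfra), -0.075 to 0.11 (Cspg4) and -0.078 to 0.15 (Gpr17). In 5xFAD against wild-type they were -0.25 to 0.011 (Olig2), -0.030 to 0.35 (Nkx2-2) and -0.075 to 0.24 (Gpr17). In 5xFAD-Dp16 against Dp16 they were -0.18 to 0.10 (Cspg4) and -0.23 to 0.026 (Gpr17), in the mean 5xFAD effect -0.12 to 0.029 (Gpr17), and in 5xFAD-Dp16 against wild-type -0.25 to 0.040 (Cspg4) and -0.090 to 0.18 (Gpr17). In the interaction they were -0.090 to 0.15 (Pdgfra), -0.043 to 0.34 (Cspg4), -0.44 to 0.0077 (Gpr17) and -0.044 to 0.30 (Myrf).

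Over all genes, edgeR calls moved by over 1.5 times: from 0 (males) to 210 (no low-count filter) around 14 in Dp16 against wild-type, 0 to 75 around 9 in 5xFAD-Dp16 against 5xFAD, 11 to 179 around 39 in the mean duplication effect, 44 to 398 around 162 in 5xFAD against wild-type, 49 to 620 around 141 in 5xFAD-Dp16 against Dp16, 169 to 1284 around 427 in the mean 5xFAD effect, 40 to 355 around 169 in 5xFAD-Dp16 against wild-type and 0 to 128 around 0 in the interaction. Group differences of the deposited RPKM were within the replicate spread of those in CPM for all 8 genes. Depth limits Nkx2-2 most, with 43 counts in its lowest library.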

Other observations

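Genes of other cell types were read beside the 8. Among 10 astrocyte genes, Gfap alone was called in the mean 5xFAD effect (log2 1.36 ± 0.104 SE, edgeR adjusted p = 5.38e-07). In that effect 3 of the 10 were called without the 4 midbrain-rich libraries, all higher (2.85% of all tested genes). Of 6 tested genes of dividing cells, 6 were positive in that effect and 1 was called, the mitotic kinase gene Cdk1 (log2 2.20 ± 0.513, adjusted p = 0.0296), at a mean level of 0.572 CPM. Without the 4 midbrain-rich libraries 7 of these genes were tested, 7 were positive and 0 were called, 6 with an unadjusted p below 0.05 (14.7% of all tested genes). None of the tested genes of neurons (10), pericytes (8), fibroblasts (8) or endothelium (8) was called by edgeR in that effect, and 1 neuronal and 1 endothelial gene had an unadjusted p below 0.05 (15.7% of all tested genes). Of 10 microglial genes, 1 was positive in the mean duplication effect, with a median of log2 -0.18, 0 called and 4 with an unadjusted p below 0.05, as 4.6% of all tested genes had (Trem2 at log2 -0.41 ± 0.112, edgeR adjusted p = 0.394).

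Of 12 thalamic genes, 12 were positive in 5xFAD against wild-type (median log2 0.82) and 0 in the mean duplication effect (median -0.47), with 0 called by edgeR in both. At an unadjusted p below 0.05 there were 3 of the 12 in the first (8.85% of all tested genes) and 5 of the 12 in the second (4.6%). Without the 4 midbrain-rich libraries 6 of 12 were positive in 5xFAD against wild-type (median log2 0.0028) and 5 of 12 in the mean duplication effect (-0.077). Those 4 libraries were also the highest in thalamic genes, so this change was largely set by leaving them out. Tcf7l2, which is on this list and on those of committed precursors and of lineage regulators, stood at log2 -0.92 ± 0.46 SE in the mean duplication effect (edgeR adjusted p = 0.949).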
